A study of Homo sapiens with 6 samples.

Results

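Fibroblast growth factor (FGF) receptors and ligands were followed in OVCAR-3 cells in which PTGS1, the gene of cyclooxygenase 1 (COX-1), had been knocked down. The set was chosen by name, with earlier results of these data known, and holds 10 of the 34811 genes in the count table. It comprises the receptor kinases FGFR1, FGFR2, FGFR3 and FGFR4, the receptor FGFRL1, the ligands FGF1, FGF2, FGF9 and FGF18, and the carrier FGFBP1. OVCAR-3 is a human ovarian carcinoma line used as a model of high-grade serous ovarian cancer.

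Both groups carried a pRS plasmid for a short hairpin RNA (shRNA) and had been kept under puromycin. The shRNA was scrambled in OV3/SCR cells and directed against COX-1 in OV3/COX1KD cells, and the comparison asks which transcripts differ when COX-1 is reduced. Each group was 1 clone, grown as 3 separate populations in RPMI-1640 with serum and harvested before confluence, so that clone and knockdown cannot be told apart. All p-values therefore measure the spread between cultures of 1 clone and not between clones. Counts were whole reads per gene, with 25291505 to 27391538 counts in a library.

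FGFs are secreted proteins that bind receptor tyrosine kinases together with heparan sulfate on the cell surface or in the matrix. The bound receptors dimerize, phosphorylate the docking protein FRS2 and pass the signal to the RAS-ERK, PI3K-AKT and PLC-gamma routes. Alternative exons in the third immunoglobulin-like domain of the receptors give IIIb and IIIc isoforms that bind different ligands, and epithelial cells mostly use IIIb. ERK activity in turn induces inhibitors such as the Sprouty proteins and dual-specificity phosphatases. FGF signalling is known in ovarian carcinoma for roles in growth, angiogenesis and drug resistance.

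The FGF genes did not move in 1 direction. FGFR2, FGF2 and FGF9 were higher in OV3/COX1KD cells, FGFR1 and FGFR4 were higher by about 10%, and FGFR3, FGFRL1, FGF18 and FGFBP1 were lower. Differences ran from FGFBP1 at 54.8% of its OV3/SCR level to FGF9 at 3.55 times it. The targeted gene itself, PTGS1, was counted 713, 658 and 641 times in control libraries 1 to 3 and 456, 486 and 501 times in knockdown libraries 1 to 3. The OV3/COX1KD level of PTGS1 was 73.3% of the control level (log2 fold change -0.45 ± 0.057 (SE), adjusted p = 1.34e-06), and the libraries did not overlap.

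Of the 10 genes, 9 passed the filter on low counts and FGF1 did not. All 9 tested genes passed a false discovery rate (FDR) of 0.01 in edgeR's quasi-likelihood test, where 47.9% of the 17309 genes tested did. Of these, 5 were higher, against 25.8% of all tested genes, and 4 were lower, against 22.1%. With scaling to total counts, the FGF genes split into 3 higher and 4 lower. The same scaling turned the split over all tested genes from 4473 higher and 3820 lower into 3466 higher and 4978 lower. A fold change above 2.5 as well was reached by 1 gene, FGF9, against a background of 3.92%. A log2 difference beyond 0.5 was reached by 3 genes, FGF2, FGF9 and FGFBP1, against 19.9%. The 3 libraries of each group did not overlap for any of the 9 genes, which was also true of 63.1% of all genes tested. The median log2 fold change of the 9 was 0.13, beside -0.0087 over all genes tested. The set was chosen with earlier results known, so these shares only describe it.

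**Figure D1:**
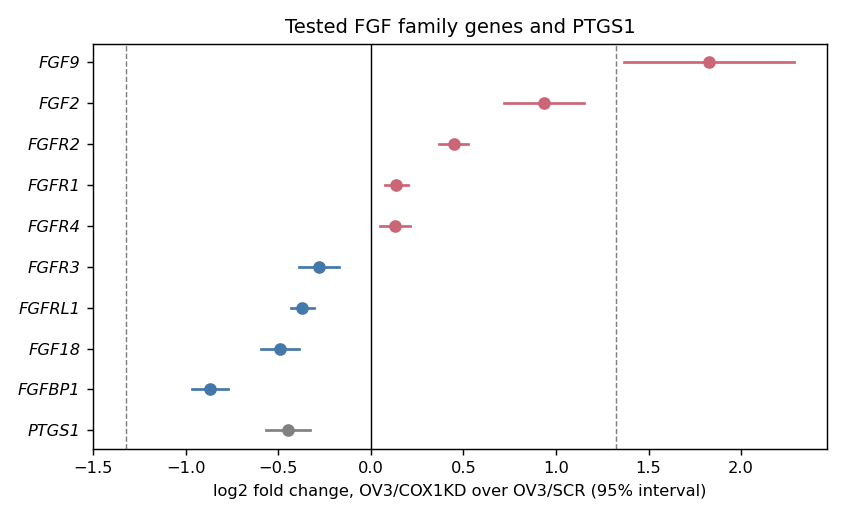
The horizontal axis gives the log2 fold change of OV3/COX1KD over OV3/SCR, with points for the estimate and bars for its 95% interval over 3 libraries a group, and dashed lines mark a fold change of 2.5 in either direction. FGF9, at 1.83, is the gene past a dashed line, and FGFR1 and FGFR4 lie nearest to 0 at 0.14 and 0.13.

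FGFR1, a receptor for FGF2 among many ligands, had 4218, 4156 and 4025 counts in OV3/SCR libraries 1 to 3. It had 4455, 4293 and 4592 counts in OV3/COX1KD libraries 1 to 3. The ranges did not overlap, but the gap between them was narrow. Values in CPM are counts per library total, the totals being adjusted by the trimmed mean of M-values (TMM). FGFR1 rose from 158 ± 1.92 to 173 ± 3.04 CPM (mean ± SD, n = 3), a log2 fold change of 0.14 ± 0.0305 (SE) with adjusted p = 7.04e-04. A larger absolute change was seen in 72.9% of tested genes. With total-count scaling the FGFR1 difference was 0.059 and its adjusted p 0.106, so the call was lost. FGFR1 lies on the minus strand of chromosome 8 at 38257733 to 38326352 (GRCh37), and shares 2.25% of its exon length with the long non-coding RNA gene RP11-350N15.4 and 0.802% with LETM2, both on the other strand. LETM2 was not called (log2 fold change -0.38, adjusted p = 0.0498), and RP11-350N15.4, with the larger overlap, was not examined. The part of these overlaps in the FGFR1 difference was not tested.

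FGFR2, whose IIIb form is the epithelial receptor for FGF7 and FGF10, had 1581, 1485 and 1512 counts in the control libraries 1 to 3. In the knockdown libraries 1 to 3 it had 2017, 1995 and 2089. Every knockdown library lay well above every control library. FGFR2 rose from 58.2 ± 1.18 to 79.3 ± 0.887 CPM, a log2 fold change of 0.45 ± 0.0365 with adjusted p = 2.7e-09. It was the largest difference among the 4 receptor kinases, and 31.7% of tested genes changed more. FGFR2 lies on the minus strand of chromosome 10 at 123237846 to 123357972 (GRCh37).

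FGFR3, a receptor with high affinity for FGF9 and FGF18 in its IIIc form, moved the other way. It had 870, 874 and 793 counts in OV3/SCR libraries 1 to 3 and 662, 683 and 700 in OV3/COX1KD libraries 1 to 3. All knockdown values were below all control values, of which the third was the lowest. FGFR3 fell from 32.2 ± 1.46 to 26.6 ± 0.556 CPM (log2 fold change -0.28 ± 0.0514, adjusted p = 1.1e-04). It lies on the plus strand of chromosome 4 at 1795020 to 1810599 (GRCh37).

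FGFR4, which serves as the receptor of FGF19 with the co-receptor KLB, had 1412, 1393 and 1409 counts in the control libraries. In the knockdown libraries it had 1473, 1444 and 1597, the highest of these coming from the deepest library, and the groups did not overlap. FGFR4 was at 53.6 ± 0.785 CPM in OV3/SCR and 58.6 ± 1.17 CPM in OV3/COX1KD cells (log2 fold change 0.13 ± 0.0388, adjusted p = 0.00726). This was the least secure of the 9 calls. It was lost in edgeR without OV3/SCR library 1, 2 or 3 or without OV3/COX1KD library 1 or 3, where the adjusted p lay between 0.0145 and 0.0332. It was also lost in DESeq2 (adjusted p = 0.0414) and with total-count scaling (0.262). FGFR4 lies on the plus strand of chromosome 5 at 176513906 to 176525145 (GRCh37).

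Relative levels of the 4 receptor kinases were compared after division by gene length. Over the union of annotated exons, FGFR2 made up 10.3% ± 0.269 (SD, n = 3) of the length-scaled FGFR1 to FGFR4 total in OV3/SCR and 13.2% ± 0.167 in OV3/COX1KD cells. FGFR3 made up 22.1% ± 0.820 and 17.2% ± 0.458. The FGFR2 share was thus higher and the FGFR3 share lower in every knockdown library than in any control library. FGFR1 held 30.5% ± 0.122 and 31.5% ± 0.423 and FGFR4 37.1% ± 0.80 and 38.1% ± 0.636, and for FGFR4 the libraries of the groups overlapped.

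The order of the 4 receptors depended on which length was used, since the exons of FGFR1 and FGFR2 together span 17201 and 18813 bases while their longest transcripts have 6216 and 6964. With the longest transcript, FGFR1 led with 43.3% of the total in both groups and FGFR4 followed with 29.6% in OV3/SCR and 29.4% in OV3/COX1KD cells. FGFR2 then stood at 14.3% and 17.7%, and FGFR3 at 12.8% and 9.58%. With either length the FGFR2 share was higher and the FGFR3 share lower in the knockdown libraries. Counts per gene hold no information on the IIIb and IIIc isoforms.

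**Figure D2:**
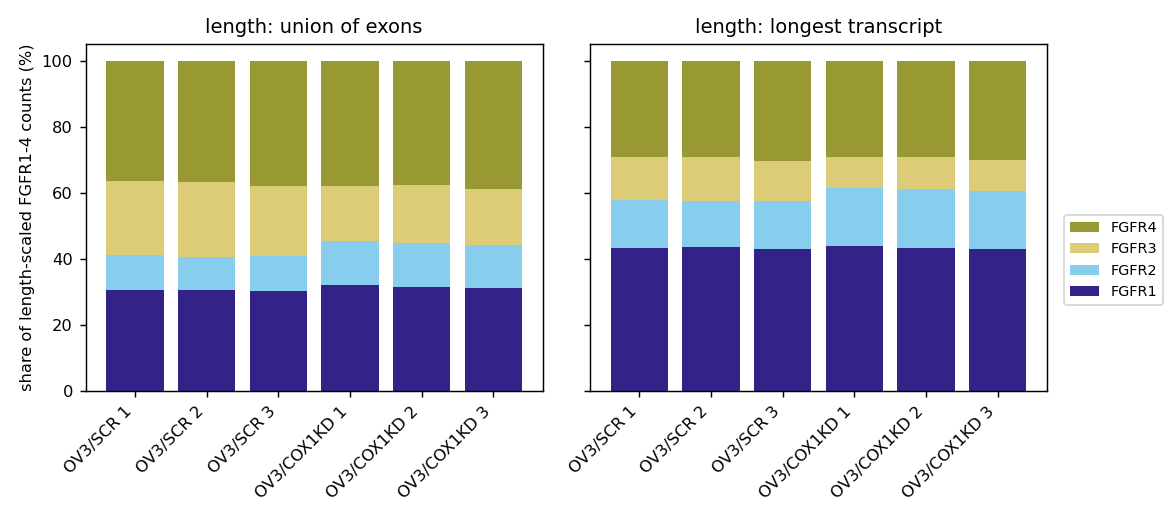
Stacked bars give, for each of the 6 libraries, the share in percent of each receptor kinase gene in the summed length-scaled counts of FGFR1 to FGFR4, with the union of exons as length on the left and the longest transcript on the right. FGFR2 takes a thicker and FGFR3 a thinner band in the 3 OV3/COX1KD libraries in both panels.

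FGFRL1 binds FGFs and heparin but has no kinase domain. It was the most abundant of the 10 genes both in CPM and per length. It had 6635, 6503 and 6404 counts in OV3/SCR libraries 1 to 3 and 4854, 4753 and 5187 in OV3/COX1KD libraries 1 to 3. The groups stood far apart and the control libraries lay close together. FGFRL1 fell from 248 ± 0.917 to 192 ± 2.55 CPM (log2 fold change -0.37 ± 0.0288, adjusted p = 1.27e-09). Scaled by exon length (RPKM, which is CPM per kilobase of exon) it stood at 57.2 ± 0.211 in OV3/SCR and 44.3 ± 0.587 in OV3/COX1KD cells. The kinase gene with the highest level per exon length, FGFR4, stood at 11.1 ± 0.163 and 12.2 ± 0.243 RPKM.

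FGFRL1 lies on the plus strand of chromosome 4 at 1003724 to 1020686 (GRCh37), 0.791 Mb from FGFR3 by gene start, so the 2 receptor genes that were lower are near each other. Other genes of the same stretch were also lower. Among the 30 tested genes that start within 1 Mb of FGFR3, 21 were lower and 0 higher, with a median log2 fold change of -0.39. Among the 33 within 1 Mb of FGFRL1, 20 were lower and 0 higher, with a median of -0.37. These windows overlap, and each counts the other receptor. Within 2 Mb on either side of FGFR3, with both receptors left out, 56 genes were tested, of which 34 (60.7%) were lower and 3 higher, with a median of -0.37. Over all tested genes 22.1% were lower and 25.8% higher. Farther along the chromosome the picture was mixed, though the share of lower genes stayed above 22.1% up to 10 Mb. From 2 to 4 Mb from FGFR3, 4 of 10 tested genes were lower and 1 higher (median 0.11), and from 4 to 6 Mb 7 of 17 were lower and 2 higher (median -0.091). From 6 to 8 Mb 3 of 8 were lower and 1 higher (median -0.45), and from 8 to 10 Mb 2 of 3 were lower and 1 higher (median -0.54). The medians from 6 to 10 Mb, over few genes, were below the median within 2 Mb, so no end of the stretch is given. From 10 to 15 Mb, 3 of 15 tested genes were lower, FGFBP1 among them, and 4 higher, with a median of 0.11. From 15 to 48 Mb, 18 of 88 were lower and 31 higher, with a median of 0.072. The limits of these stretches were chosen after the values were seen. The change of FGFR3 (-0.28) and of FGFRL1 (-0.37) was thus of about the size of the median change of their neighbours. What part the stretch has in the lower receptor levels was not tested.

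**Figure D3:**
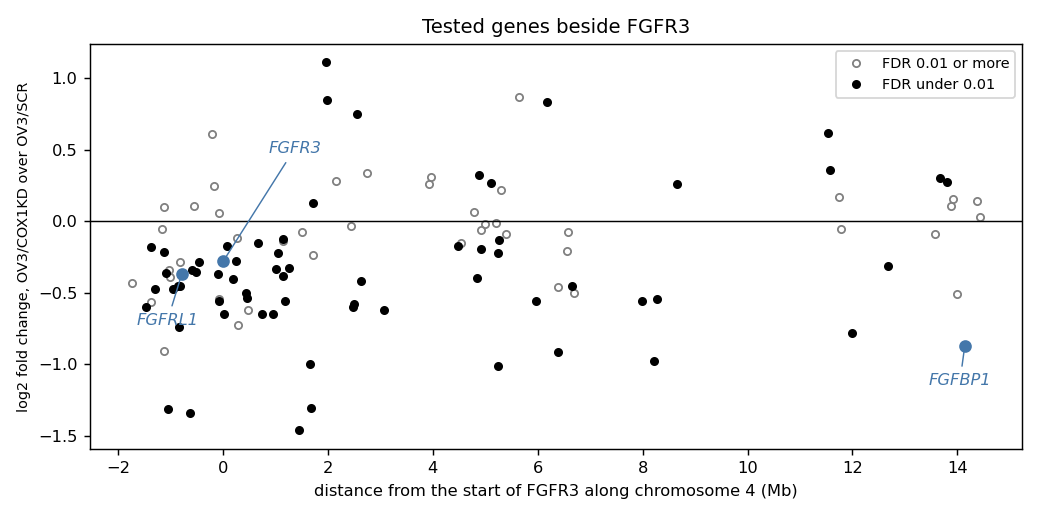
Each point is a tested gene, placed by the distance in Mb of its start from the start of FGFR3 on chromosome 4 (horizontal axis) and by its log2 fold change (vertical axis), with filled points for an FDR under 0.01. Most points within 2 Mb lie below 0 and include FGFRL1 and FGFR3, while FGFBP1 lies 14.1 Mb away among genes on both sides of 0.

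Beside the other tested members the medians within 1 Mb lay nearer to 0. Within 0.5 Mb this did not hold for FGF2, with a median of 0.38 over 3 genes. Beside FGFRL1 the median within 0.5 Mb was -0.36 over 18 genes. The value of 0.38 is that of NUDT6, a gene that shares exon bases with FGF2. Within 1 Mb, the median log2 fold change was 0.029 beside FGFR1 (4 higher and 3 lower of 23), 0.11 beside FGFR2 (2 higher and 0 lower of 7) and -0.0022 beside FGFR4 (9 higher and 9 lower of 38). It was 0.14 beside FGF2 (3 higher and 0 lower of 7) and 0.15 beside FGF9 (3 higher and 0 lower of 10). Beside FGF18 it was -0.18 (2 higher and 3 lower of 8), turning to 0.10 over the 3 genes within 0.5 Mb, and beside FGFBP1 0.13 (2 higher and 0 lower of 8). Over all tested genes 25.8% were higher and 22.1% lower. The FGFR2, FGF2, FGF9, FGF18 and FGFBP1 differences were each larger in size than the median of their neighbours.

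**Figure D4:**
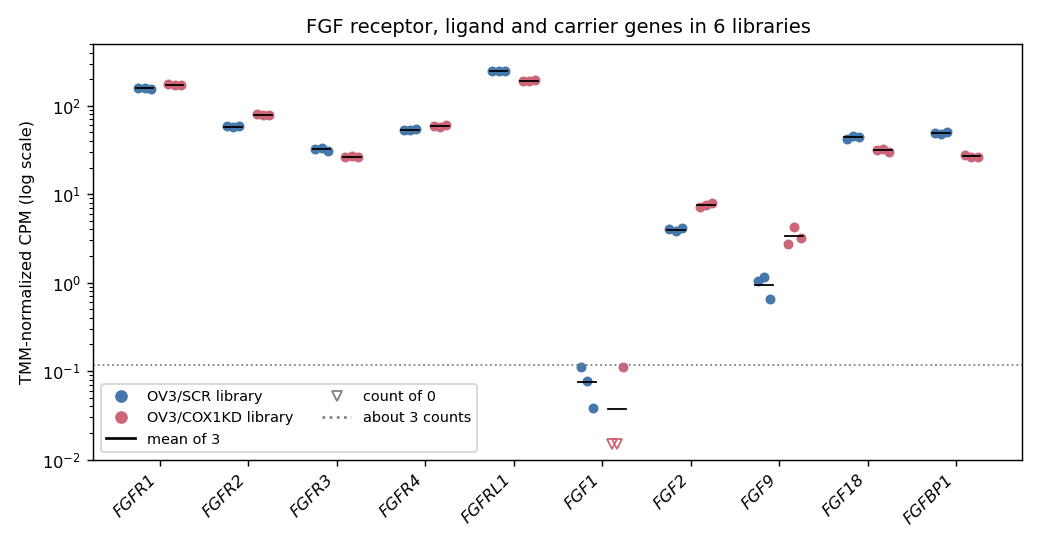
Points give the TMM-normalized CPM of each gene in each of the 6 libraries on a log axis, with a bar at the mean of 3, open triangles for a count of 0 and a dotted line at about 3 counts. Among the receptors FGFRL1 lies highest and FGFR3 lowest, FGF2 and FGF9 lie below 10 CPM, and FGF1 is at or under 3 counts in every library.

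The ligands did not move together. FGF18, a ligand of the FGF8 subfamily known for roles in bone, cartilage and lung, was by far the most abundant. It had 1128, 1201 and 1139 counts in OV3/SCR libraries 1 to 3 and 799, 816 and 799 in OV3/COX1KD libraries 1 to 3. No knockdown library reached the lowest control library. FGF18 fell from 44.1 ± 1.89 to 31.4 ± 1.31 CPM (log2 fold change -0.49 ± 0.0493, adjusted p = 5.18e-08). It lies on the plus strand of chromosome 5 at 170846651 to 170884630 (GRCh37).

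FGF2, basic FGF, is a ligand without a classical signal peptide that is stored on heparan sulfate. It had 108, 99 and 107 counts in the control libraries 1 to 3 and 183, 191 and 214 in the knockdown libraries 1 to 3. Every knockdown library held more than 1.5 times the counts of any control library. FGF2 rose from 3.99 ± 0.176 to 7.63 ± 0.380 CPM, a log2 fold change of 0.94 ± 0.103 with adjusted p = 1.97e-07. FGF2 lies on the plus strand of chromosome 4 at 123747837 to 123819391 (GRCh37).

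FGF2 overlaps NUDT6, a gene read from the other strand, over 804 bases of exon or 11.8% of the FGF2 exon length. The library kit does not mark strand, so reads from the shared bases cannot be assigned to either gene. NUDT6 was also higher, at 8.41 ± 0.862 CPM in OV3/SCR and 11.0 ± 0.840 CPM in OV3/COX1KD cells (log2 fold change 0.38 ± 0.0917, adjusted p = 0.00137). Its part in the FGF2 difference was not tested.

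FGF9, a ligand that signals between epithelium and mesenchyme in development, showed the largest change of the set from a low level. Its counts were 28, 30 and 17 in OV3/SCR libraries 1 to 3 and 69, 106 and 86 in OV3/COX1KD libraries 1 to 3. The lowest knockdown count was far above the highest control count, and within each group the libraries were more spread, relative to their mean, than for any other tested member. FGF9 rose from 0.952 ± 0.260 to 3.40 ± 0.758 CPM (log2 fold change 1.83 ± 0.220, adjusted p = 6.3e-07), and 1.61% of tested genes changed more. FGF9 lies on the plus strand of chromosome 13 at 22245212 to 22278637 (GRCh37).

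FGF1, acidic FGF, binds all FGF receptors and was barely detected. It had 3, 2 and 1 counts in the control libraries and 0, 0 and 3 in the knockdown libraries. These values are at or under the limit of 3 counts that a count of 0 allows (0.112 to 0.120 CPM in these libraries), so no fold change is given. A difference in FGF1 was not detectable at this depth. FGF1 lies on the minus strand of chromosome 5 at 141971743 to 142077635 (GRCh37).

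FGFBP1 is a secreted carrier that releases FGF2 from the heparan sulfate of the matrix. It had 1313, 1251 and 1309 counts in OV3/SCR libraries 1 to 3 and 699, 670 and 706 in OV3/COX1KD libraries 1 to 3. The libraries of each group lay close together and the groups far apart. FGFBP1 fell from 49.2 ± 1.31 to 27.0 ± 0.678 CPM (log2 fold change -0.87 ± 0.0461, adjusted p = 3.97e-12), and 10.4% of tested genes changed more. The carrier was thus lower by 1.83-fold while FGF2 was higher by 1.91-fold in the same libraries. FGFBP1 lies on the minus strand of chromosome 4 at 15937200 to 15940363 (GRCh37).

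The 250 bases before the RefSeq transcript start are shown for FGFBP1, FGF18 and FGF2, because these were the members with an entry that differed most. RefSeq promoter entries matched 8 of the 10 genes. The sequences are from GRCh38.p14, 5′ to 3′ on the gene's strand, at chr4:15938741-15938990 (minus strand), chr5:171419397-171419646 (plus) and chr4:122826581-122826830 (plus). Capitals mark matches to the GC box GGGCGG on either strand.
FGFBP1: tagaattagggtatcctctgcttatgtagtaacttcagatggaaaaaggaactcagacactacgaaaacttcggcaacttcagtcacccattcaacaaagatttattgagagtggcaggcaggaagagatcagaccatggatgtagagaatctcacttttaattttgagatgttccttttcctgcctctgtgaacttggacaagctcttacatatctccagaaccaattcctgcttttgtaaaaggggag
FGF18: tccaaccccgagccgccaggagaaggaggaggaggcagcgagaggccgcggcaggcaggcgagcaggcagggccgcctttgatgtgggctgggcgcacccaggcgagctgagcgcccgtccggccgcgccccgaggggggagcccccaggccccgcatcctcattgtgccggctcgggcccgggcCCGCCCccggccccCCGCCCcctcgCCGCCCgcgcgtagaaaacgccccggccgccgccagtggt
FGF2: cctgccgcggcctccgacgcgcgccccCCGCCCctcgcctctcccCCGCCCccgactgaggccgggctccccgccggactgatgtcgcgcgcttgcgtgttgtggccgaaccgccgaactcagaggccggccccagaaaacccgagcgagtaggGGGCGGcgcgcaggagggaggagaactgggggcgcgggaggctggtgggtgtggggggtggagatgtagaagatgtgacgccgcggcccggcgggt

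The FGFBP1 promoter was AT-rich, with 40.8% GC against 78.8% for FGF18 and 75.2% for FGF2, and a median of 58% over 35116 RefSeq promoters. A higher GC content was found in 85.1% of promoters for FGFBP1, 4.15% for FGF18 and 9.34% for FGF2. FGF18 and FGF2 each held 3 GC boxes and FGFBP1 held 0, where 42.6% of all promoters held at least 1. No match in any of the 3 windows was found for the AP-1 motif TGANTCA, the cAMP response element TGACGTCA or the TATA box TATAAA, also searched on both strands. These motifs occurred in 6.57%, 1.65% and 10.7% of all promoters. No matched motifs overlapped. The pair that fell, FGFBP1 and FGF18, thus lay at opposite ends in GC content.

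With the union of exons as length, the order of the 10 genes was the same in both groups. In OV3/SCR cells FGFRL1 was followed by FGFBP1 at 36.4 ± 0.973, FGF18 at 22.1 ± 0.944, FGFR4 at 11.1 ± 0.163, FGFR1 at 9.16 ± 0.112 and FGFR3 at 6.65 ± 0.301 RPKM. FGFR2 at 3.09 ± 0.0625, FGF2 at 0.587 ± 0.0259, FGF9 at 0.196 ± 0.0537 and FGF1 at 0.0152 ± 0.0074 RPKM came last. Neighbours in this order differed by more than the sum of their SDs in either group. With the longest transcript as length the order changed and was no longer the same in both groups. In OV3/SCR cells FGFR1, at 25.3 RPKM on that scale, then stood above FGF18 (22.1) and FGFR4 (17.3), and FGFR2 (8.35) above FGFR3 (7.48). In OV3/COX1KD cells FGFR1 (27.9) also stood above FGFBP1 (19.96), and FGFR4 (19.0) above FGF18 (15.7).

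FGF18 made up most of the length-scaled counts of the 14 secreted ligands in the table. Its share was 92.9% ± 0.824 (SD, n = 3) in OV3/SCR and 85.0% ± 0.515 in OV3/COX1KD cells. FGF2 made up 2.47% ± 0.194 and 6.09% ± 0.535, and FGF9 0.825% ± 0.215 and 3.78% ± 0.785. For each of the 3 ligands the shares in the knockdown libraries lay all on one side of those in the control libraries. FGF2 and FGF9 gained share but stayed far below FGF18.

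The rest of the pathway was read from lists of genes grouped by role, also chosen with earlier results of these data known. Of 14 other secreted FGF ligands, 10 had a row in the table, and 4 of them passed the filter (FGF5, FGF7, FGF21 and FGF22). Of these, 0 were called in edgeR or DESeq2, with 0 at an unadjusted p under 0.05 in edgeR. Over all tested genes 47.9% were called in edgeR. The 4 ligands had 3 to 34 counts in a library, so that only large differences could be called. FGF5 was the most counted, with 30 to 34 counts in control and 18 to 29 in knockdown libraries. FGF21, a metabolic hormone and the highest of them per length, had 12, 12 and 6 counts in the control libraries and 18, 8 and 3 in the knockdown libraries, and the groups overlapped. FGF7, the IIIb ligand of FGFR2, had 9 to 15 counts in a library. FGF19, which signals through FGFR4, had 0 to 2. FGF3, FGF4, FGF10 and FGF16 were not analysed here.

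The intracellular FGF homologous factors share the FGF fold but bind sodium channels and are not secreted. Of 4, 3 were tested, with 1 higher and 0 lower, which is near the 25.8% of all tested genes that were higher. FGF12 rose from 4.13 to 7.97 CPM (log2 fold change 0.95 ± 0.109, adjusted p = 3.45e-07), with 96 to 121 counts in control and 187 to 220 in knockdown libraries. FGF13 was at 0.21 (adjusted p = 0.0131) and FGF11 at -1.02 (adjusted p = 0.0429) and neither passed the threshold. FGF14 was not analysed here.

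Of 8 carriers and co-receptors, 6 were tested, with 1 lower and 0 higher, where 22.1% of all tested genes were lower and 25.8% higher. NCAM1, an adhesion molecule that can bind FGFR1, had 85, 100 and 72 counts in OV3/SCR libraries 1 to 3 and 12, 13 and 13 in OV3/COX1KD libraries 1 to 3. It fell by 2.71 on the log2 scale (SE 0.221, adjusted p = 2.57e-09), the largest difference in any FGF list. FLRT3, a membrane protein that binds FGFR1 and was the highest of these genes per length, stood at 0.074 (adjusted p = 0.311), and at -0.0042 with total-count scaling. The klotho gene KL, a co-receptor of FGF23, was at 0 in all control libraries and had 1, 0 and 0 counts in knockdown libraries 1 to 3.

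Heparan sulfate is the co-factor of FGF binding, and enzymes that build, sulfate or trim it were mostly higher. Of 13, 12 were tested, 9 were higher and 1 was lower, with a median log2 fold change of 0.24, where 25.8% of all tested genes were higher and 22.1% lower. With total-count scaling 7 were higher and 1 lower, beside 3466 higher and 4978 lower of all genes tested. SULF1, an extracellular sulfatase that removes sulfate from heparan sulfate chains, had 105, 79 and 114 counts in the control libraries and 641, 592 and 643 in the knockdown libraries. It rose from 3.79 to 24.4 CPM (log2 fold change 2.68 ± 0.0933, adjusted p = 6.98e-15), and the groups were far apart. Of 3 tested neighbours within 1 Mb of SULF1, 1 was higher and 0 lower, with a median log2 fold change of 0.51. HS2ST1, which adds 2-O-sulfate, rose by 0.92 (adjusted p = 1.38e-13) and HS6ST1, which adds 6-O-sulfate, by 0.70 (adjusted p = 3.88e-12). HPSE, the heparanase that cleaves the chains, rose by 0.82 (adjusted p = 1.08e-11). Enzymes that add sulfate and enzymes that remove it or cut the chain were thus both higher. NDST1, the N-sulfating enzyme and the highest of the list per length, stood at 0.19 (adjusted p = 5.94e-04). The NDST1 call was lost in 1 of 13 alternative settings (edgeR adjusted p = 0.0190). EXT1, a chain polymerase, was the 1 lower gene and was picked out after its values were seen (log2 fold change -0.57, adjusted p = 6.58e-11).

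Of the genes that carry the signal inside the cell, 1 was called with a log2 difference beyond 0.5, where 19.9% of all tested genes were. All 19 were tested, 8 were higher and 4 lower, with a median of -0.023, where 25.8% of all tested genes were higher and 22.1% lower. With total-count scaling 5 were higher and 7 lower, beside 3466 higher and 4978 lower of the 17309 genes tested. PLCG1, the phospholipase that binds activated FGF receptors, fell from 79.0 to 55.2 CPM (log2 fold change -0.52 ± 0.0420, adjusted p = 2.4e-09), which is the 1 gene past 0.5. The adaptor CRK, the highest per length, stood at 0.15 (adjusted p = 1.78e-04). The CRK call was lost in 1 of 13 alternative settings (edgeR adjusted p = 0.0414). The docking protein FRS2, chosen here for its role, stood at -0.023 (adjusted p = 0.660). The other lower genes, named after their values were seen, were AKT1 (-0.24), SHC1 (-0.16) and SOS1 (-0.14).

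The list of feedback inhibitors and target transcription factors includes genes that FGF and other signals induce through ERK. Of 15, 14 were tested, 2 were higher and 4 lower, with a median of -0.22. The 6 calls among 14 genes are near the background, in which 47.9% of all tested genes were called and 22.1% were lower. DUSP4, a nuclear ERK phosphatase, had 270, 237 and 261 counts in OV3/SCR and 87, 87 and 117 in OV3/COX1KD libraries 1 to 3, without overlap (log2 fold change -1.37 ± 0.109, adjusted p = 1.79e-09). DUSP5, another ERK phosphatase, fell by 0.89 (adjusted p = 1.81e-06) and SPRED3, a RAS-ERK inhibitor, by 0.85 (adjusted p = 6.59e-04). ETV4, an ETS factor induced by FGF, rose by 0.57 (adjusted p = 8.01e-08). SPRED2 (-0.31, lower) and the receptor inhibitor IL17RD (0.55, higher) complete the called genes and were named after their values were seen. The Sprouty genes SPRY1, SPRY2, SPRY3 and SPRY4 did not pass the threshold, with values between -0.38 and -0.036. DUSP6, a phosphatase specific for ERK, stood at 0.15 (adjusted p = 0.303).

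The 4 splicing factors known to act on the FGFR2 IIIb and IIIc exons gave 1 higher gene, near the background of 25.8%. ESRP1, the epithelial factor that promotes IIIb, had 7095, 7165 and 6997 counts in the control libraries and 10303, 9856 and 11202 in the knockdown libraries, and rose by 0.59 (SE 0.0309, adjusted p = 3.26e-12). ESRP2 stood at 0.021 (adjusted p = 0.597) and RBFOX2 at 0.022 (adjusted p = 0.600), and both turned negative with total-count scaling. PTBP1, a repressor of IIIb in other cells, stood at -0.063 (adjusted p = 0.0560). ESRP1 lies among genes that were partly higher too, with 9 of 18 tested neighbours within 1 Mb higher and 0 lower.

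**Figure D5:**
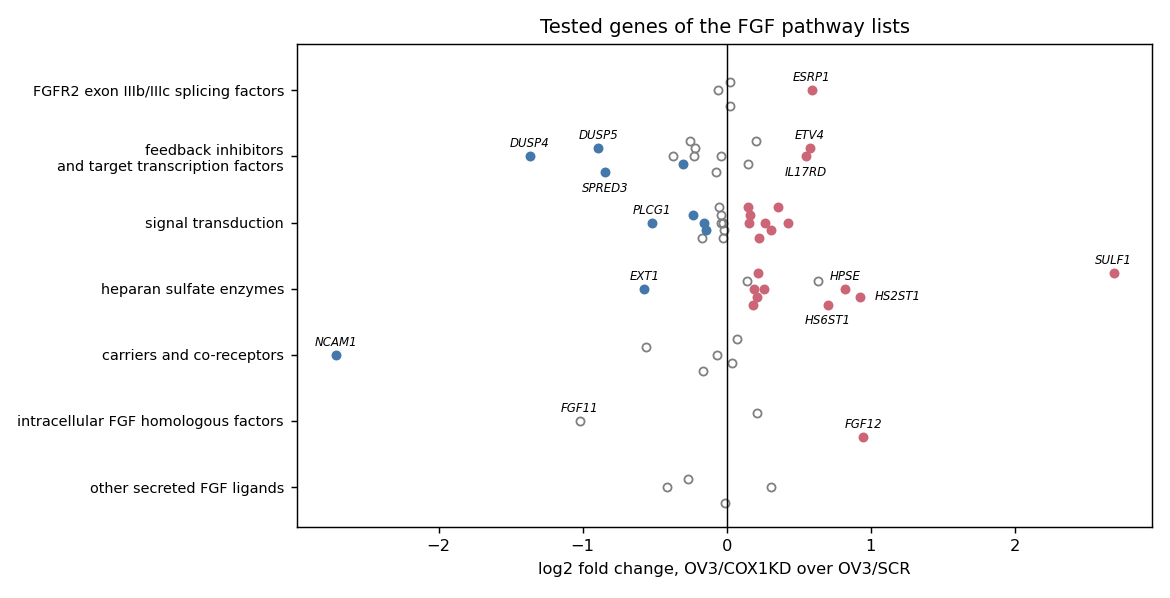
Each point is a tested gene of a pathway list (vertical axis), placed by its log2 fold change of OV3/COX1KD over OV3/SCR (horizontal axis), with filled points for an FDR under 0.01 (red higher, blue lower) and open points for the rest. SULF1 at 2.68 and NCAM1 at -2.71 lie farthest from 0, and the heparan sulfate enzymes lie mostly to the right.

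The cells carried the markers of serous ovarian epithelium in both groups. All 9 markers (PAX8, WT1, MUC16, EPCAM, KRT7, KRT8, KRT18, KRT19 and CDH1) were at 99.2 CPM or more in OV3/SCR cells. In OV3/COX1KD cells 7 were higher and 2 (PAX8 and KRT7) lower, where 25.8% of all tested genes were higher and 22.1% lower. Leukocyte markers were at 1 to 16 counts in a library. Of the endothelial markers, CDH5 was at 0 to 3 and VWF at 25 to 52 counts. Of the fibroblast markers, COL3A1 was at 0 in 5 libraries and at 4 in the other, PDGFRB at 2 to 6 and DCN at 7 to 16 counts, while COL1A1 fell from 258 to 270 counts in the controls to 143 to 160 in the knockdown libraries. The part of COL1A1 expression in any FGF result was not tested. In such bulk libraries, fewer cells expressing a gene and less RNA per cell cannot be told apart.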

How the data were processed

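RNA from 3 OV3/SCR and 3 OV3/COX1KD cultures was made into libraries with a TruSeq RNA kit and sequenced on an Illumina HiSeq. Alignment to hg19 was done by the authors with TopHat2 (version 2.0, per the submitters' processing notes) and counting with HTSeq, and the deposited table holds raw counts per gene. Annotation and strand setting are not given in the sources used here. HTSeq by default discards reads that fit more than 1 gene, which can lower overlapping genes. Counts were tested with edgeR 4.0.16 (R 4.3.3) by quasi-likelihood, with TMM factors, filterByExpr and Benjamini-Hochberg adjustment over 17309 of 34811 genes, calling FDR under 0.01. Log2 fold changes are OV3/COX1KD over OV3/SCR, with SE. The test was tested on simulated data. Positions, exon lengths and neighbours came from GENCODE 44 lifted to GRCh37, matched by Ensembl gene identifier for 33556 genes. Depth was 25291505 to 27391538 counts a library, and limits of 3 counts cover counting error only. Replicate libraries differed by more than sampling noise, so all 6 were kept. Alternatives were RLE factors, total counts, no filter, 10 counts in every library, DESeq2 1.42.0, a replicate block, GC and length offsets, and each library left out. Ligand shares and their alternatives were added after seeing the data.

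The FGF genes and pathway lists were chosen with earlier results of these data known. Genes named in a list were up to 4 with the largest change at FDR under 0.01 and a log2 change of 0.5 or more, the highest per length, and every gene of lists of 4 or fewer.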

Additional observations from a re-analysis of the deposited data

How the results depend on the processing

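Of the 117 log2 fold changes of the 9 tested FGF genes under 13 alternatives, 107 kept their direction and their side of the threshold, and none changed direction. The exceptions were FGFR1 (0.059 with total-count scaling) and FGFR4, which stood at 0.13 with RLE factors (adjusted p = 0.0112), 0.052 with total-count scaling, 0.11 with at least 10 counts in every library (adjusted p = 0.0158) and 0.13 in DESeq2 (adjusted p = 0.0414). Leaving out 1 library gave FGFR4 values from 0.12 to 0.15. Total-count scaling moved the median of all genes from -0.0087 to -0.087, and with it FGF genes called higher went from 5 to 3, signal transduction genes from 8 to 5 higher and from 4 to 7 lower, and splicing factors called lower from 0 to 1. The same scaling turned FLRT3 (-0.0042), ESRP2 (-0.057) and RBFOX2 (-0.056) negative. FGF21 turned positive without a filter (0.0089) and with GC and length offsets (0.033), and ranged from -0.83 to 0.44 with 1 library left out. Intracellular factors called higher went from 1 to 2 without a filter. With 1 library left out they were 1 to 2 higher (2 without OV3/SCR library 1) and 0 to 1 lower (1 without OV3/COX1KD library 2). Requiring 10 counts in every library, which tests fewer genes, gave 400 genes called with a fold change above 2.5, where 679 were called with the usual filter.

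With the longest transcript as length, shares in OV3/SCR and OV3/COX1KD cells were 43.3% and 43.3% for FGFR1, 14.3% and 17.7% for FGFR2, 12.8% and 9.58% for FGFR3 and 29.6% and 29.4% for FGFR4, and the FGF18 share of the ligands in OV3/COX1KD cells was 84.0%. Neighbours within 0.5 Mb had a median of -0.046 beside FGFR1, 0.066 beside FGFR2, -0.36 beside FGFRL1, 0.38 beside FGF2 and 0.10 beside FGF18. The cause of these changes was not tested beyond the settings themselves.

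The same replicate numbers in both groups are not stated to mark shared cultures. The deviations of same-numbered libraries correlated across genes at -0.0082, 0.046 and 0.027, and not every library correlated best with its own number. With the replicate number as a block, 4437 genes were higher and 3796 lower, and all 9 FGF genes were called, FGFR4 at an adjusted p of 0.00992 in edgeR. At this depth FGF1 and most other ligands gave too few counts to test.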
